A study of Homo sapiens with 4 samples.

Results

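The 10 genes described here, *TFAP2B*, *EBF1*, *EBF3*, *SOX11*, *KLF7*, *ZNF536*, *SATB1*, *EYA1*, *SIX3* and *DACH1*, encode transcription factors or transcriptional coregulators that are studied beside the core regulatory circuitry of the adrenergic (ADRN) neuroblastoma cell state. They were taken as a given list of gene names, and the rule that assigns peaks to them uses no measured height. Each H3K27ac peak that overlapped the GENCODE body of a member, extended by 10 kb on either side, was counted as its peak. By this rule 106 of the 63699 peaks in control cells (sgCtrl) and 70 of the 50119 peaks in *SNHG1*-depletion cells (sgSNHG1) belonged to the 10 members, out of 19970 protein-coding genes.

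Both groups were SK-N-BE(2)C, a *MYCN*-amplified neuroblastoma cell line of the ADRN type. The sgCtrl cells carried Cas9 and a non-targeting gRNA and are labelled wildtype. The sgSNHG1 cells carried Cas9 and a pair of guides at *SNHG1*, a long non-coding RNA host gene, and are labelled *SNHG1* knockout. All cells were co-transfected with a surrogate reporter, kept in puromycin for 3 to 7 days, sorted as single cells and grown as clones for 1 to 2 weeks, so that a difference between the groups and a difference between clones cannot be told apart. The methods name 1 control clone and do not say which sgSNHG1 clone entered the ChIP-seq. Each group had 2 ChIP-seq samples, which the authors merged before they called peaks once per group. There is therefore 1 list per group, the spread between replicates is unknown, the depth of each sample is not given in the sources used here, and no difference could be tested.

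ADRN neuroblastoma cells resemble committed sympathoadrenal cells, and a small set of mutually activating transcription factors, the core regulatory circuitry, holds this state. Further factors of neural crest and neuronal development work around it. TFAP2B is an AP-2 factor of sympathetic noradrenergic development. EBF1 and EBF3 are helix-loop-helix factors of the COE family that act in neuronal and, for EBF1, B-cell differentiation. SIX3, EYA1 and DACH1 belong to families that form a conserved network, in which the EYA proteins coactivate the homeobox factors and the DACH proteins are usually corepressors. H3K27ac is acetylation of histone H3 at lysine 27, a mark of active promoters and enhancers, and its presence at a gene says nothing by itself about the RNA made.

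For each peak the lists give a fold enrichment, the height of the summit divided by that of its surroundings, and a −log10 p-value, both from the authors' peak caller. From these values the pileup was recovered, that is the number of fragments over the summit. Every pileup at the members came out as a whole number. The genome-wide background was 4.89 fragments in sgCtrl and 4.66 in sgSNHG1, a ratio of 0.952. At these backgrounds the smallest pileup listed was 19 fragments in sgCtrl and 18 in sgSNHG1. Of 8 adrenergic marker genes, 7 in sgCtrl and 8 in sgSNHG1 had a peak within 1 kb of a start site. The counts were 4 and 2 of 8 mesenchymal markers, 0 and 0 of 4 blood markers and 2 and 2 of 4 epithelial markers.

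The sequences around the highest distal summits give examples of the DNA under the peaks at these genes. For each, 300 bases centred on the sgCtrl summit were read from the plus strand of GRCh38. The peaks of 4 members are shown, with sgCtrl peaks that sgSNHG1 lacked at *DACH1* and *SATB1*, and peaks found in both lists at *EBF3* and *ZNF536*. They do not stand for all members. The highest distal summits of *EBF1* and *TFAP2B*, not shown, lay largely on sequence that recurs in the reference. *DACH1* had no distal peak, and its peak in intron sequence near the start is shown instead. Capitals mark matches, on either strand, to GCCNNNGGC (AP-2 type), TCCCNNGGGA (EBF type), AACAAT and ACAAAG (SOX type), CAGATG (an E-box of the HAND type), AGATAA (of the GATA type) and CACCC (of the KLF type).
DACH1, chr13:71865423-71865722: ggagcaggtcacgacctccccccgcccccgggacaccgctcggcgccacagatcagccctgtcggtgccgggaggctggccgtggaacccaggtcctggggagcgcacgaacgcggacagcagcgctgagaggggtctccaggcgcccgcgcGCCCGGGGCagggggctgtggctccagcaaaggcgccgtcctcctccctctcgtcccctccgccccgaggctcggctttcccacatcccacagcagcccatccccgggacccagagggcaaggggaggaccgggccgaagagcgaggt
SATB1, chr3:18351155-18351454: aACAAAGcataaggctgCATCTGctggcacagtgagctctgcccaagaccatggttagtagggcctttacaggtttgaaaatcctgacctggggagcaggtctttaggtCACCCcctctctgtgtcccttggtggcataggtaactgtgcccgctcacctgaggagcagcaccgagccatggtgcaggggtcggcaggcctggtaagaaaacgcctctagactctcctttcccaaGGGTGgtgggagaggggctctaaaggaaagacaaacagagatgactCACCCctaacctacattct
EBF3, chr10:129959545-129959844: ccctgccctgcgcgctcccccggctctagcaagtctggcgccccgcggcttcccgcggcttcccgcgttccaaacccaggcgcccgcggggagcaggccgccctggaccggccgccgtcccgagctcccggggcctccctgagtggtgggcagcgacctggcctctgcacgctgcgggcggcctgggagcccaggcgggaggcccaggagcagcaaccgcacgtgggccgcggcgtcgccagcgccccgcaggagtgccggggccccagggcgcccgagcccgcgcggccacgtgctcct
ZNF536, chr19:30566637-30566936: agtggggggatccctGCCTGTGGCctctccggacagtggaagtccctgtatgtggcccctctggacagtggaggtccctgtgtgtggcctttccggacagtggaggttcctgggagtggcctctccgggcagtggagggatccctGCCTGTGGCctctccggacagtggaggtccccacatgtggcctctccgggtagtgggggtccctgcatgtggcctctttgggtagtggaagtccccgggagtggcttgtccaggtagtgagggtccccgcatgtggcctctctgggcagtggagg

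The *DACH1* sequence had a GC content of 74.0% and 1 AP-2 type match. *EBF3* had the highest GC content of these, 79.7%, and none of the motifs. *ZNF536* held 2 AP-2 type matches and a tandem repeat, since shifting the sequence by 32 bases left 71.6% of its bases matching. A self-match of 60% or more at a shift of 10 to 100 bases was found in 3.56% of the 42816 sgCtrl peaks farther than 3 kb from a protein-coding start site. *SATB1* held 1 SOX type, 1 E-box and 3 KLF type matches. Windows of the same length at all distal sgCtrl peaks on the autosomes and the X chromosome held the AP-2 type motif in 27.4%, the EBF type in 1.57%, AACAAT in 2.89%, ACAAAG in 10.6%, CAGATG in 20.2%, AGATAA in 2.69% and CACCC in 78.2%. A match is a string of letters and not evidence of binding.

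The members lost more peaks than they gained. Peak numbers were lower in sgSNHG1 at 8 members, equal at *KLF7* and higher at *SIX3*. Of 16346 protein-coding genes with a peak in either list, 45.4% had fewer in sgSNHG1. This share is not matched for peak number, and 4 members were among the 1455 genes with at least 10 sgCtrl peaks. The median ratio of peak numbers in those 1455 genes was 0.727. The ratio of peak numbers, sgSNHG1 over sgCtrl, was 0.66 at the members and 0.787 over the whole lists. The bases covered by peaks were 55951 in sgCtrl and 40152 in sgSNHG1, a ratio of 0.718 against 0.768 over the whole lists. When the longer list was shortened to the length of the other, the ratio at the members was 0.864 against 1.0 for the lists. The number was then lower in sgSNHG1 at 6 members, equal at *SOX11* and higher at *KLF7*, *SIX3* and *ZNF536*.

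**Figure D1:**
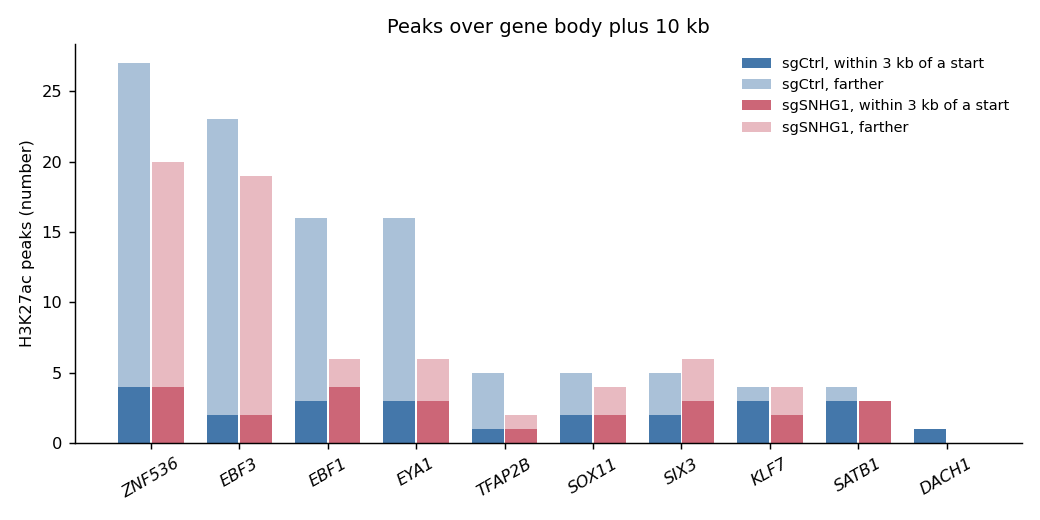
Number of H3K27ac peaks (vertical axis) over each member's body plus 10 kb in sgCtrl (blue) and sgSNHG1 (red), 1 pooled list each. Dark bars count peaks within 3 kb of an annotated start of the gene and pale bars those farther away. *EBF1* and *EYA1* went from 16 peaks to 6, *ZNF536* from 27 to 20 and *EBF3* from 23 to 19.

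Of the 106 sgCtrl peaks at the members, 46 had no overlapping sgSNHG1 peak, a share of 43.4% (95% exact binomial interval 33.8 to 53.4%, counting error only). The share over all sgCtrl peaks was 38.5%, inside that interval. In the other direction, 11 of 70 sgSNHG1 peaks, or 15.7% (8.1 to 26.4%), had no sgCtrl peak, against 20.8% of the whole list. Unshared peaks of sgCtrl were mostly distal. Beyond 3 kb from the start sites of their own gene, 44 of 82 peaks, or 53.7% (42.3 to 64.7%), were unshared, and within 3 kb 2 of 24 were, or 8.33% (1.0 to 27%). Over all sgCtrl peaks, with distance taken to any protein-coding start, the shares were 47.2% and 20.7%. Of the distal sgSNHG1 peaks at the members, 21.7% (10.9 to 36.4%) lacked a sgCtrl peak, against 24.6% of the distal sgSNHG1 list.

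The unshared peaks had lower pileups at the median, with overlapping ranges. Their pileups ran from 22 to 103 fragments with a median of 34.5, while the 60 shared sgCtrl peaks had a median of 70.5. Their median length was 278 bp against 555 bp. Split by −log10 p, the distal peaks of the members that lacked a counterpart were 80.0% of 20 peaks under 10, 66.7% of 30 from 10 to 15, 37.5% of 16 from 15 to 20 and 2 of 16 at 20 and over. All distal sgCtrl peaks gave 77.9%, 60%, 33.2% and 7.96% in the same bins, each within the interval of the members. The smallest pileup that would have passed in sgSNHG1 was computed for each peak at its own local background. Scaled by the ratio of the genome backgrounds, each of the 46 unshared peaks stood above that level, by a median factor of 1.30, and 11 of them by more than 1.5. That they stood above it was nearly fixed in advance, since each had passed the same threshold in sgCtrl and the scaling was small. The factor restates the height of the sgCtrl peak and cannot tell why a counterpart is absent. The same factor had a median of 1.75 at the shared peaks.

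**Figure D2:**
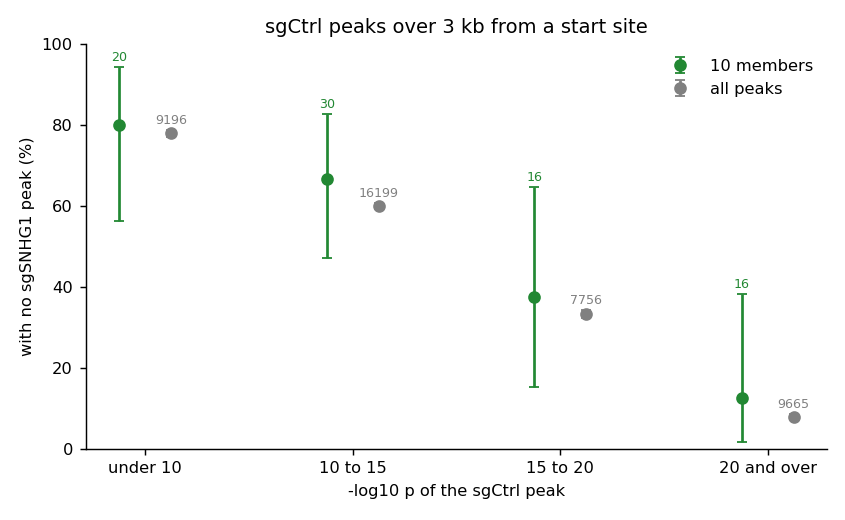
Percentage of distal sgCtrl peaks with no overlapping sgSNHG1 peak (vertical axis) by the −log10 p of the sgCtrl peak (horizontal axis), for the 10 members (green) and for the whole list (grey). Bars are 95% exact binomial intervals and numbers above them are peaks. The member shares fell from left to right, from 80.0% to 2 of 16 peaks, and every grey point lies within the green interval beside it.

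*EBF1* and *EYA1* had the lowest ratios of peak numbers among members with 10 or more sgCtrl peaks, 0.375 each. Of 1455 protein-coding genes with at least 10 sgCtrl peaks, 13.3% kept at most 50% of that number, and 2 of the 4 members of that size did. In the 5 Mb on either side of each gene the ratio was 0.861 around *EBF1* and 0.784 around *EYA1*. This pair was singled out after its values were seen.

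*EBF1* lies on the minus strand of chromosome 5 from 158695920 to 159099916. Its 4 peaks within 4 kb of the 5′ end or upstream of it were all found in sgSNHG1. The highest of them, 0.6 kb into the gene and within 1 kb of a start of *LINC02202*, had a fold enrichment of 5.60 and 188 fragments in sgCtrl and 6.46 and 245 fragments in sgSNHG1. It stood higher in sgSNHG1 by 1.37 as a ratio of pileups over genome background. Of the 13 distal peaks of *EBF1*, 9 were absent from sgSNHG1, 7 of them in introns between 49.5 and 143.0 kb from the 5′ end and 2 near or beyond the 3′ end. The highest was the peak at 143.0 kb, at a fold enrichment of 6.27, 42 fragments and a −log10 p of 22.3. The next, at 109.7 kb, had a fold enrichment of 5.14 and 49 fragments. All 7 shared *EBF1* peaks had a higher pileup over genome background in sgSNHG1, with ratios from 1.07 to 1.37 and a median of 1.24. In the 5 Mb around the gene the median ratio was 1.07. However, the sgCtrl peaks at 153.3 and 152.4 kb matched the same sgSNHG1 peak, of 32 fragments. Those at 4.0 and 3.0 kb matched 1 other, of 105 fragments. Both sgSNHG1 values thus entered more than once, and the fall in peak number at *EBF1* includes such joined peaks.

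*EYA1*, on the minus strand of chromosome 8 from 71197433 to 71592025, kept 6 of its 16 peaks. The kept ones were 3 near annotated starts, 230.2, 44.6 and 43.8 kb from the 5′ end, and 3 intronic peaks at 130.6, 129.8 and 35.6 kb. The 10 absent ones were all distal, with fold enrichments from 3.37 to 5.60 and 24 to 50 fragments. Unlike at *EBF1*, 5 of the 6 kept peaks had a ratio of pileups over genome background below 1. The median ratio was 0.786 at *EYA1*, 0.993 in the 5 Mb around it and 0.919 over all shared peaks. The peak at 44.6 kb had 49 fragments in sgCtrl and 31 in sgSNHG1, a ratio of 0.665 after division by the genome backgrounds. The peak at 43.8 kb had 49 and 32 fragments. Relative to all shared peaks their fold enrichments differed by -0.53 (-1.24 to 0.14) and -0.48 (-1.19 to 0.17) on the log2 scale, with 95% intervals of counting error that include 0.

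**Figure D3:**
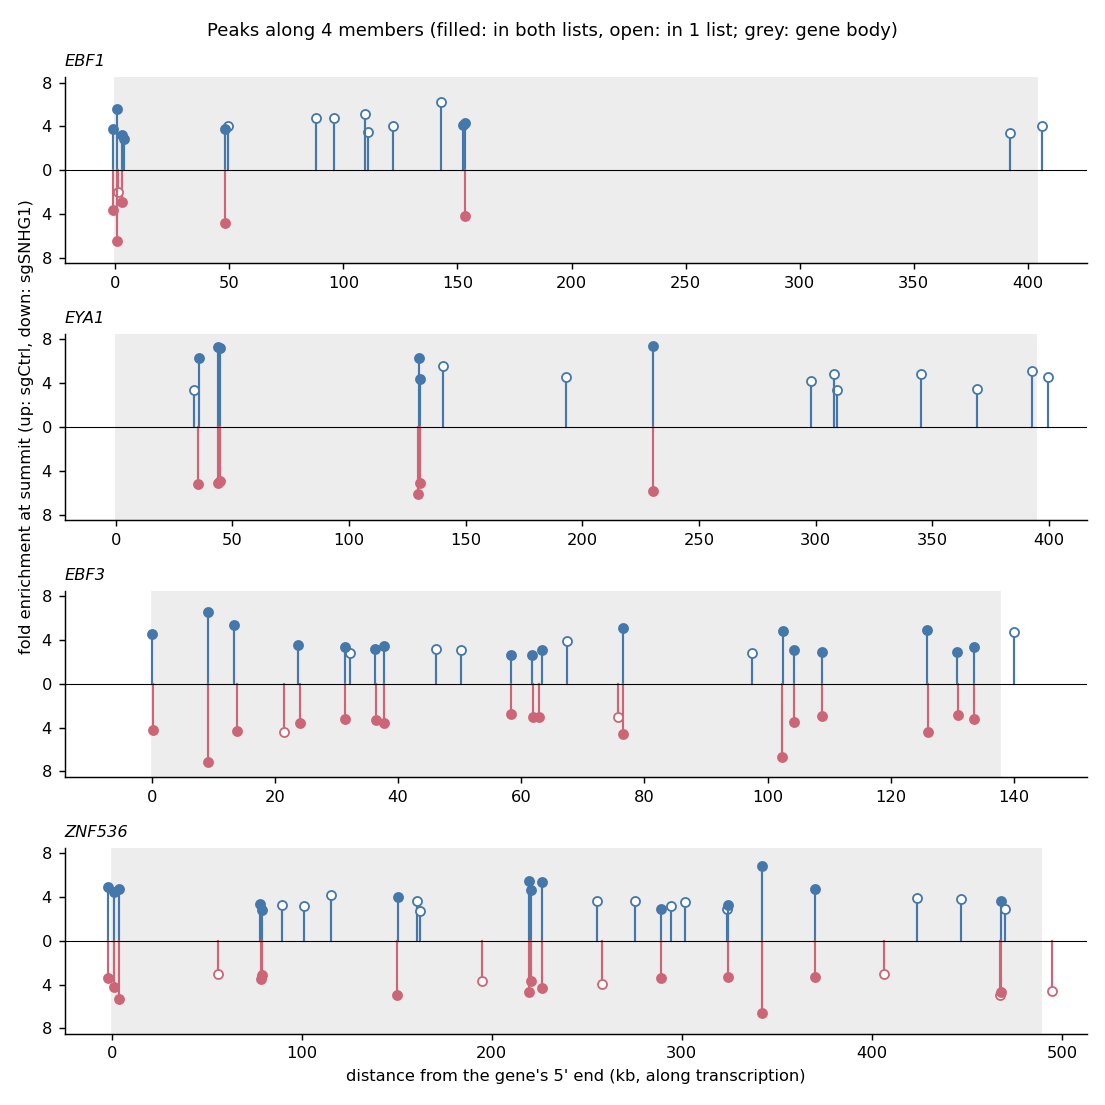
Peaks along *EBF1*, *EYA1*, *EBF3* and *ZNF536*, drawn by the distance of the summit from the gene's 5′ end in kb (horizontal axis) and by fold enrichment (vertical axis, sgCtrl upwards and sgSNHG1 downwards). Filled circles are peaks found in both lists, open circles those in 1 list, and grey the gene body. The open circles of *EBF1* and *EYA1* lie in the gene interior or past the 3′ end, apart from 1 sgSNHG1 peak at the start of *EBF1*.

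More than 50% of the 24-base stretches occurred more than once in the reference (recurring sequence) in the 300-base windows of 8 of the 44 unshared distal peaks and of 3 of the 38 shared ones. Of those 8, 4 lay at *EBF1*, 3 at *EYA1* and 1 at *TFAP2B*. They include the unshared peaks of highest fold enrichment at *EBF1*, at 143.0 kb, and at *EYA1*, at 140.1 kb. There 77.3% and 79.4% of the stretches recurred, while the next highest, at 109.7 kb and 392.7 kb, had 0.0%. The 3 shared distal peaks on such sequence lay at *EBF1*, at 153.3 and 152.4 kb, and at *EBF3*, at 23.8 kb. This share was not computed over all distal sgCtrl peaks. The median GC content was 55.7% at the unshared distal peaks, 62.8% at the shared distal peaks and 71.2% near starts. The part of either feature in the difference was not tested. Without all 11 peaks on recurring sequence the unshared share over the members was 40.0%, a calculation chosen after seeing the data.

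*EBF3* and *ZNF536* carried the most peaks. *EBF3*, on the minus strand of chromosome 10 from 129835233 to 129973053, had 23 peaks in sgCtrl and 19 in sgSNHG1, and 17 of the 23 were shared. The pileup over genome background was lower in sgSNHG1 at 15 of these 17, and the ratios ran from 0.67 to 1.19. In the 5 Mb around the gene the median ratio was 0.811, and at *EBF3* it was 0.871. The lowest ratio belonged to the intronic peak at 13.4 kb whose sequence is shown above, with 138 fragments in sgCtrl and 88 in sgSNHG1. The single highest ratio was that of an intronic peak at 102.5 kb, with 113 fragments in sgCtrl and 128 in sgSNHG1. Its fold enrichments were 4.81 and 6.68, a relative log2 difference of 0.51 (0.13 to 0.88), the only one of the 60 whose counting interval lay above 0. The peak at 9.1 kb, at an internal start of the gene, had fold enrichments of 6.61 and 7.18.

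*ZNF536*, a zinc-finger repressor gene of neuronal differentiation on the plus strand of chromosome 19 from 30224891 to 30713586, had 27 peaks in sgCtrl and 20 in sgSNHG1, whereas with lists of equal size it had 4 more in sgSNHG1. Of its sgCtrl peaks 13, or 48.1% (28.7 to 68.1%), were unshared, against 38.5% of all sgCtrl peaks. All 13 were among its 23 distal peaks, where the share over all distal sgCtrl peaks was 47.2%. Of its 20 sgSNHG1 peaks 6 were unshared, against 20.8% of that list, and they were 6 of the 11 at all members. The highest of these 6 lay at 467.1 kb, with a fold enrichment of 4.97 and 75 fragments. It lay within 1 kb of the shared sgSNHG1 peak at 467.9 kb. The tandem-repeat peak at 341.9 kb was the highest in sgCtrl and was kept, with fold enrichments of 6.83 and 6.58 and 133 and 118 fragments. Near the start, the peak at 3.9 kb had 88 and 118 fragments and that 2.1 kb upstream 72 and 52. Of the 14 shared peaks, 8 had a lower and 6 a higher pileup over genome background. Their median ratio was 0.945, and in the 5 Mb around the gene it was 0.958.

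*SOX11*, a SoxC factor gene of immature neurons, and *TFAP2B* showed kept starts and fewer distal peaks. *SOX11* lies on the plus strand of chromosome 2 from 5692384 to 5701385. Its peak 0.5 kb upstream, also at the starts of *LINC01248* and of an unnamed gene, had 291 fragments in sgCtrl and 345 in sgSNHG1 and fold enrichments of 6.74 and 7.32. The peak at 4.3 kb, at annotated UTR sequence and within 1 kb of a start of another unnamed gene, had 253 fragments in both lists. Only the peak at 14.9 kb, with 33 fragments, was unshared. *TFAP2B*, on the plus strand of chromosome 6 from 50818723 to 50847619, went from 5 peaks to 2. Its start peak had fold enrichments of 8.0 and 7.44 and 162 and 172 fragments. The 3 absent peaks, 8.6 kb upstream and 27.2 and 31.8 kb downstream of the 5′ end, had 26, 38 and 24 fragments.

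*KLF7*, a Krüppel-like factor gene of neuronal development on the minus strand of chromosome 2 from 207074137 to 207173856, held the highest peak of all members. It lay at 7.2 kb, at a start of *KLF7* and within 1 kb of starts of *MIR7845* and *MYOSLID*, with fold enrichments of 11.71 and 11.62 and 362 and 439 fragments. Reads there cannot be given to one of these genes. A lower neighbour at 8.6 kb had fold enrichments of 3.54 and 2.63, a relative log2 difference of -0.40 (-0.80 to -0.01), the only one whose interval lay below 0, while its pileups were 113 and 105. *KLF7* lost 1 peak, at 9.2 kb with a fold enrichment of 2.21, and gained 1, at 85.3 kb in a coding exon with 3.55.

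*SATB1*, the gene of a chromatin organizer, lies on the minus strand of chromosome 3 from 18345377 to 18445621. Its 3 peaks at starts were kept, with fold enrichments of 10.14 and 9.21 at 20.5 kb and 10.02 and 8.99 at 0.2 kb, where *SATB1-AS1* and *TBC1D5* also have starts. Their pileups over genome background were all higher in sgSNHG1, with ratios from 1.13 to 1.58. The median over all shared peaks near protein-coding starts was 1.05. The 1 distal peak, at 94.3 kb with 25 fragments, was absent from sgSNHG1.

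*SIX3*, a homeobox gene on the plus strand of chromosome 2 from 44941702 to 44946071, was the member with more peaks in sgSNHG1, 6 against 5, although each of its 4 shared peaks had fewer fragments there. The broad sgCtrl peak over the gene, 2597 bp with 245 fragments, stood against sgSNHG1 peaks of 1328 bp with 130 fragments and 498 bp with 86. The peak at 8.1 kb had 135 and 70 fragments and that at 10.6 kb 149 and 110. The ratios over genome background ran from 0.545 to 0.869, and the median in the 5 Mb around was 0.917. The local background was lower too, at 54.37 and 35.47 fragments over the gene and 33.85 and 22.1 fragments at 10.6 kb. Fold enrichment at the shared peaks had a median relative log2 difference of -0.04. The fold enrichments of the highest peak were 4.44 in sgCtrl and 4.81 in sgSNHG1, at different places.

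*DACH1*, on the minus strand of chromosome 13 from 71437966 to 71867204, was the member with no sgSNHG1 peak at all. Its only sgCtrl peak lay in an intron 1.6 kb from the 5′ end, from 71865278 to 71866432, over an annotated start. It had a fold enrichment of 8.65, a −log10 p of 33.1 and 50 fragments (37.1 to 65.9, 95% counting interval). The median pileup of all sgCtrl peaks was 55 fragments. The local background of the *DACH1* peak was 4.89 fragments, the genome-wide value. Scaled to the sgSNHG1 background its 50 fragments become 47.6, where 18 would have passed at the same local background, a factor of 2.64. This factor too restates the height of the sgCtrl peak. Of 10976 sgCtrl peaks within 3 kb of a protein-coding start and with a −log10 p of 20 or more, 1.62% had no sgSNHG1 peak. *DACH1*, 1 of 10 members, was singled out for this comparison by its absence. The surrounding 10 Mb held few peaks, 12 in sgCtrl and 9 in sgSNHG1. The absence of a listed peak limits the signal and does not show that acetylation was at 0.

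At the 60 sgCtrl peaks with a counterpart, fold enrichment was much alike in the lists. The median log2 ratio relative to all shared peaks was -0.02, with 33 values below 0 and 27 above. None was more than 1.5-fold lower or higher, where 2.15% and 2.17% of all 39156 shared peaks were. The pileup over genome background spread more widely. Its median ratio was 0.925 at the members and 0.919 over all shared peaks. It was more than 1.5-fold lower at 3 peaks, or 5.00%, which were 1 of *EYA1* and 2 of *SIX3*, and more than 1.5-fold higher at 1 of *SATB1*, or 1.67%. Over all shared peaks these shares were 11.0% and 5.55%. Near starts the median ratio was 1.10 at 22 member peaks and farther away 0.875 at 38. The whole lists showed the same ordering, with 1.05 near protein-coding starts and 0.846 elsewhere.

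**Figure D4:**
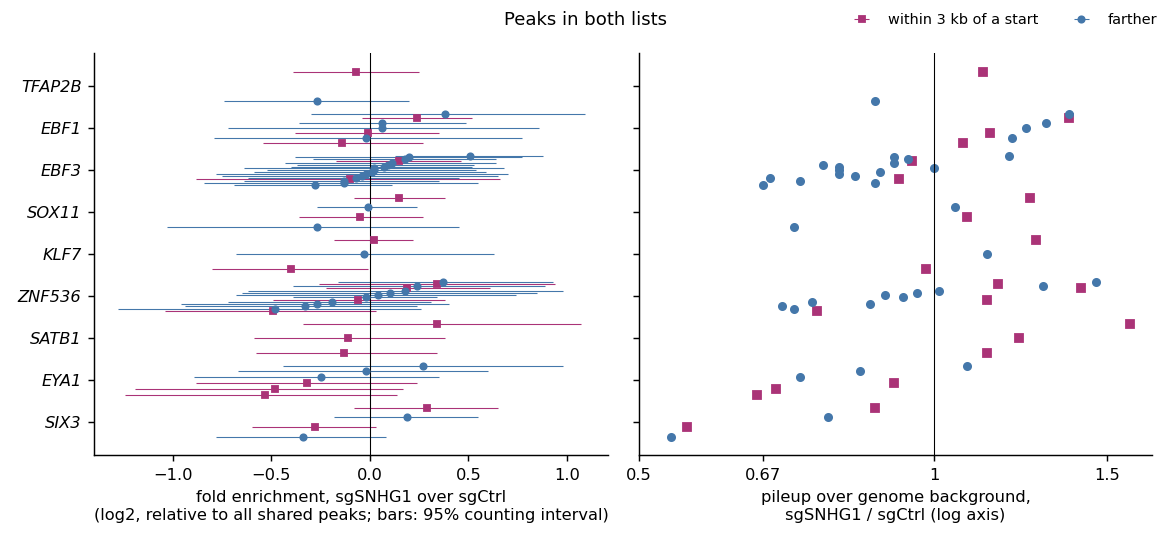
The shared peaks of 9 members, by gene on the vertical axis. Left, log2 ratio of fold enrichment, sgSNHG1 over sgCtrl, relative to the median of all shared peaks, with bars for the 95% counting interval. Right, ratio of pileup over genome background on a log axis. Squares are peaks within 3 kb of a start of the gene and circles are farther ones. All *EBF1* and *SATB1* points lie right of 1 in the right panel and all *SIX3* points left of 1.

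The highest peak of each member, ranked within its own list, was at a lower percentile of fold enrichment in sgSNHG1 at 6 of the 9 members with a peak in both lists, against 59.1% of 15058 protein-coding genes. The median change was -1.06 percentile points at the members and -0.68 over those genes. With lists of equal size the median change at the members was 0.01. At 6 of the 9 members the highest peak was the same region in both lists. It was not at *EYA1*, where it lay at 230.2 kb in sgCtrl and 129.5 kb in sgSNHG1. Nor was it at *EBF1*, at 143.0 and 0.7 kb, or at *SIX3*. *EYA1* went from the percentile 90.0 to 82.2, the largest change with this window and measure. Over the gene body alone *SIX3* changed by -24.43 points, with 50 kb *EBF1* by -11.82, and with equal lists *SIX3* by 12.92. *TFAP2B* moved from 91.7 to 88.3, *ZNF536* from 88.0 to 84.7, *SATB1* from 95.6 to 92.8, *EBF1* from 85.1 to 84.1 and *KLF7* from 97.4 to 96.6. *EBF3* and *SOX11* stood 0.35 and 0.27 points higher in sgSNHG1, and *SIX3* 3.8 points higher. The signs at *EBF1*, *EBF3*, *KLF7*, *SOX11*, *ZNF536* and *SIX3* depended on the window, the threshold or the measure.

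**Figure D5:**
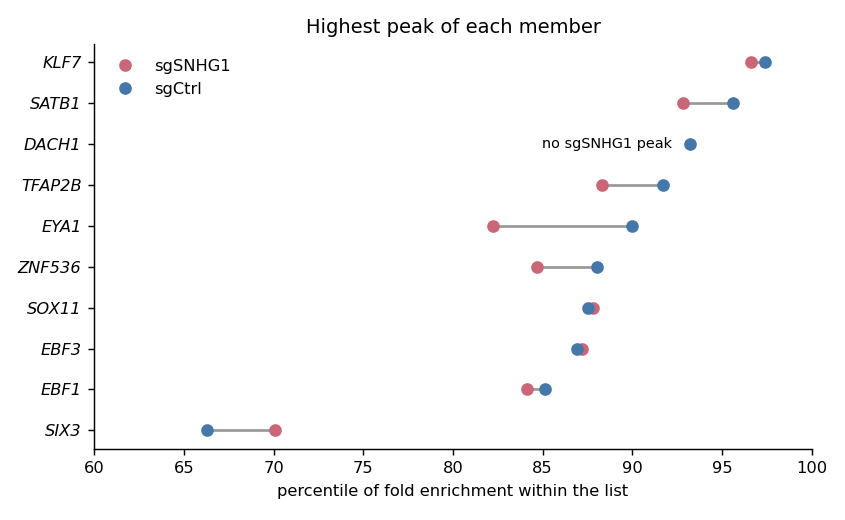
Percentile of the highest peak of each member among all fold enrichments of its list (horizontal axis) in sgCtrl (blue) and sgSNHG1 (red). *EYA1* has the longest line, from 90.0 to 82.2, *SIX3* moves the other way, from 66.3 to 70.1, and *DACH1* has a sgCtrl point only, at 93.2. At *EYA1*, *EBF1* and *SIX3* the points of the lists are peaks at different places.

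Approximate super-enhancers were built by joining neighbouring peaks that lay farther than 2.5 kb from a start site and ranking the joined regions by fold enrichment times length. Under this definition 383 regions in sgCtrl and 299 in sgSNHG1 were super-enhancers. *EBF3* had the only one among the members, in sgCtrl. There 13 peaks over 63.7 kb ranked 149 of 21420, in the top 0.696%, and in sgSNHG1 the best region held 6 peaks over 24.9 kb and ranked 344 of 17549, in the top 1.96%. The best region of *SIX3* stood in the top 2.07% in sgCtrl and 2.34% in sgSNHG1, that of *SOX11* in the top 4.02% and 3.57%, that of *ZNF536* in the top 4.34% and 4.74% and that of *EYA1* in the top 5.56% and 7.28%.

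Relatives of the members in their gene families were mostly sparse in peaks. Of 19 such genes, 9 had a sgCtrl peak and 7 had none in either list, among them *TFAP2C* and *EBF2*. The family list went from 25 peaks to 21, and 7 of the 25 sgCtrl peaks, or 28.0% (12.1 to 49.4%), were unshared, an interval that holds the 38.5% of all sgCtrl peaks. *EYA4* went from 4 peaks to 2 and *TFAP2E* from 4 to 2, while *SOX4*, the SoxC relative of *SOX11*, had 2 in each list with fold enrichments of 9.06 and 8.69 at the highest. *TFAP2A*, *SIX4* and *EBF4* had 1 peak each in sgSNHG1 and 0 in sgCtrl. The 5 core regulatory circuitry genes, *MYCN*, *HAND2*, *ISL1*, *GATA3* and *TBX2*, had 35 peaks in sgCtrl and 37 in sgSNHG1, and 3 of the 35, or 8.57% (1.8 to 23.1%), were unshared, an interval below those 38.5%. All 3 lay at *GATA3*, which had 8 sgCtrl peaks, while *MYCN*, amplified in these cells, gave 10 of the 35 with 0 unshared. The shares of the 3 lists rest on few peaks, and their difference was not tested against replicates. None of these shares was matched for peak height or distance to a start.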

How the data were processed

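H3K27ac ChIP-seq of 2 sgCtrl and 2 sgSNHG1 samples was used. The authors trimmed adaptors with cutadapt, aligned paired-end reads to GRCh38 with BWA, pooled the replicates and ran MACS2 once per group at a p-value of 1e-06 with duplicates kept. The deposited fold enrichment is a ratio of summit to local background, and the deposited −log10 p grows with depth. No input library is named in the sources used here.

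Genes came from GENCODE release 44. Peaks were shared where they overlapped by at least 1 bp. Each shared sgCtrl peak was compared with the sgSNHG1 peak of longest overlap, so that 1 sgSNHG1 peak could serve for more than 1. Pileups were recovered assuming a pseudocount of 1 and a Poisson p-value, and were whole within 0.01 for 99.86% and 99.87% of peaks. No peak was dropped on a low value, so all members were counted. The members and lists were chosen with earlier results of these data known. Named were the 10 members, their highest, start-site and unshared peaks, a family list and 5 core genes. Some items under this rule are not reported here. Intervals (95%) cover counting error only. Percentiles rank fold enrichment within a list. Alternatives were a −log10 p of at least 10, equal list sizes, gene windows of 0 or 50 kb, merging within 1 kb, 50% reciprocal overlap and other measures. Scripts were tested on simulated data. Python 3.11.15 with pandas 2.3.3 and scipy 1.17.1 was used, and bedtools 2.31.1 in the tests.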

Additional observations from a re-analysis of the deposited data

How the results depend on the processing

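No paired analysis was possible because both replicates of a group had been merged before peaks were called, and for the same reason no replicate could be left out. Of 197 recalculations, 180 were counted as unchanged, 5 as moved and 12 as changed in sign. For single members only an opposite sign counted, so a change to or from 0 was counted as unchanged. Ratios of peak numbers and covered length and counts of super-enhancers were held to a 1.5-fold limit. The other results were held to their interval, within which a median could still change sign. The unshared share of sgCtrl peaks was 32.1% with lists of equal size, where the whole list gave 28.8%, and 54.7% with an overlap of 50% of both peaks, where the whole list gave 48.8%. The latter setting also moved the unshared share of sgSNHG1 peaks to 31.4%. With a −log10 p of at least 10 the members gave 38.1% and the whole list 39.7%, so their order turned. With peaks near start sites kept in, 2 members had a super-enhancer in sgCtrl and 1 in sgSNHG1. The difference in peak number at *ZNF536* became 4 with equal lists, where its change in percentile became 0.01, as did the median over the members, and that of *EBF1* 2.96. The change in percentile became -0.34 at *EBF3* and -0.41 at *SOX11* with a −log10 p of at least 10, -3.36 at *SOX11* and -24.43 at *SIX3* over the gene body only, and -9.33 at *SIX3* with 50 kb. With percentiles of −log10 p it was 1.21 at *EBF1*, -2.22 at *EBF3*, 0.13 at *KLF7* and -10.45 at *SIX3*. The cause was not tested. Leaving out each member in turn gave ratios of peak numbers from 0.614 to 0.711, of covered length from 0.678 to 0.759, unshared shares from 40.0% to 48.2% for sgCtrl and 10.0% to 17.6% for sgSNHG1, median changes in percentile from -1.93 to -0.93 and median log2 ratios from -0.02 to -0.01. A single pooled list per group leaves the variation between samples and clones unmeasured.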
